A study of Mus musculus with 6 samples.

Results

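The 48 interferon-stimulated antiviral genes described here were picked by name. They are genes known to be switched on by type I interferon. Many of their products sense viral nucleic acid, degrade or bind viral RNA, or block the entry, replication or release of viruses. Others attach or remove tags such as ubiquitin on proteins, or have other roles. The rule used names and no measured values, although the list was drawn up when earlier results of these data were known. Each of the 48 symbols was found exactly once among the 54532 genes of the deposited table, and all 48 were among the 12755 genes tested, which reached 1 TPM in 2 or more libraries. TPM is a length-corrected share of the reads of a library, so that levels can be compared between genes.

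The libraries come from bone-marrow-derived macrophages (BMDMs) of wildtype C57BL/6 mice, grown from marrow cells in medium conditioned by L929 cells, which secrete the macrophage growth factor. Cells were left untreated (replicates 1 and 2), stimulated for 2 h with 100 ng/ml LPS (replicates 1 and 2), or kept with 5 mM metformin for 6 h before the same LPS stimulation (Met + LPS, replicates 1 and 2). No library received metformin alone. Nothing in the labels says that the 2 libraries of a group came from separate mice or cultures, so the p-values measure only the spread between these libraries, which may be technical.

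Macrophages sense LPS, which coats Gram-negative bacteria, through TLR4. The adaptor TRIF, encoded by Ticam1, then drives the kinase TBK1 and the transcription factor IRF3, which switch on Ifnb1. Secreted interferon beta acts back on the cells through the receptor chains IFNAR1 and IFNAR2, the kinases JAK1 and TYK2 and a complex that holds STAT2 and IRF9. That complex binds a DNA element with repeats of GAAA, and several of the genes, Ifit1, Ifit2 and Isg15 among them, can also be switched on by IRF3 without interferon.

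Reads recovered from the TPM values numbered 25457016 to 30762755 per library. Of 7 macrophage markers, 7 were at 1 TPM or more, and their summed level was 43710 and 45600 TPM in the untreated libraries, 35264 and 34526 TPM in LPS and 28763 and 28884 TPM in Met + LPS. Most of this sum was Lyz2, at 33981 and 35844, 26974 and 26696, and 21203 and 21381 TPM. Adgre1 rose with LPS, from 1510 and 1575 to 1750 and 1684 TPM, and Fcgr1 overlapped. The other markers were lower in both LPS libraries, among them Csf1r, from 1839 and 1943 to 1343 and 1308 TPM. Between LPS and Met + LPS, Cd68 overlapped and the other markers were lower. The markers of plasmacytoid dendritic cells, which are strong producers of interferon, summed to at most 0.911 TPM, those of B cells to at most 0.515 TPM and those of natural killer cells to at most 0.305 TPM in any library. Markers of neutrophils and their precursors summed to between 26.7 and 32.8 TPM in the untreated and LPS libraries and to 45.9 and 43.6 TPM in Met + LPS. Of these, Ly6g was at 0.140 TPM in Met + LPS replicate 1 and at 0 in all other libraries. Markers of endothelium summed to between 21.4 and 27.3 TPM in the untreated and LPS libraries and to 34.2 and 32.5 TPM in Met + LPS. Nearly all of that was Kdr, as Pecam1 reached at most 0.297 TPM and Cdh5 at most 0.293 TPM. Whether such cells were present, and their part in the results below, was not tested. In bulk RNA, fewer cells expressing a gene and less of its RNA per cell cannot be told apart.

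RefSeq promoters (build GRCm38.p6, 250 bases before and 50 after each start site) were listed for 37 of the 48 genes. The letters GAAA, any 2 bases and GAAA again, the core of the interferon-stimulated response element, were searched on both strands, with overlapping matches counted. They stood in the promoters of 18 of the 37 genes (48.6%), against 3.99% of the 27025 genes with a listed promoter. TTCNNNGAA, the core of the site bound by STAT dimers, stood in 7 of the 37 (18.9%), against 9.55%. Such a match is a run of letters and not a measured binding site. The bases upstream of the start site are printed for 7 genes, namely the most abundant ones with the element (Isg15, Ifit1, Rsad2) and the near-identical pairs Ifit3 and Ifit3b, and Oas1a and Oas1g, from 5′ to 3′ on the strand of the gene, with capitals for the match on either strand. They lie at chr4:156200819-156201068 (minus strand), chr19:34640639-34640870 (plus strand, shortened to the bases before the annotated gene), chr19:34583279-34583528 and chr19:34607707-34607956 (plus strand), chr12:26456453-26456702, chr5:120907526-120907775 and chr5:120887614-120887863 (minus strand).
Isg15: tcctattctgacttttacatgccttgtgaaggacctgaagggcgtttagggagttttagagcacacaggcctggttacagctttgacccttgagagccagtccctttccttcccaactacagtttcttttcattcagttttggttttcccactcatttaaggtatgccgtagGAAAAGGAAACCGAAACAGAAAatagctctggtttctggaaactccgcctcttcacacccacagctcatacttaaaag
Ifit1: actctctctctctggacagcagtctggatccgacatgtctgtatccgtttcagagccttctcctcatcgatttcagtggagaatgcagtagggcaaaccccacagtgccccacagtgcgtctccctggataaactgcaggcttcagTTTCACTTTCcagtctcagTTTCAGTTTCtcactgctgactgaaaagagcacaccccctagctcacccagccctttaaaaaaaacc
Ifit3: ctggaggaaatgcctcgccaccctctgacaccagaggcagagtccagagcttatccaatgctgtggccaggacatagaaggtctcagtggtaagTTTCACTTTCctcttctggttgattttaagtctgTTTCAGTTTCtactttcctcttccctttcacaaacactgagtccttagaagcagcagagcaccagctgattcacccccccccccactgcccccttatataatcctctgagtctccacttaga
Ifit3b: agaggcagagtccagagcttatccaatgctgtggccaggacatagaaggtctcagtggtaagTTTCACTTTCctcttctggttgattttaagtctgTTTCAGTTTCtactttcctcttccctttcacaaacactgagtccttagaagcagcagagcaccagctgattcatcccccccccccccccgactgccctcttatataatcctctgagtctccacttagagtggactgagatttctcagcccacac
Rsad2: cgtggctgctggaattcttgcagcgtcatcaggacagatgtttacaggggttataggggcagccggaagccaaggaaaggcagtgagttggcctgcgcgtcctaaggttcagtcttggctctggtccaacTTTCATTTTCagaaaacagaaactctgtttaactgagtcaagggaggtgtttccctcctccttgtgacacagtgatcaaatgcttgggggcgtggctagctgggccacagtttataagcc
Oas1a: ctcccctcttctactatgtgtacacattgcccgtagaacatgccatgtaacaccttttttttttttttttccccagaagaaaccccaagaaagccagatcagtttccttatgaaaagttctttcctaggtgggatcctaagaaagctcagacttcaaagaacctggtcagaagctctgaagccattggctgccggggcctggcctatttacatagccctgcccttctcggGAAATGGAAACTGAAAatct
Oas1g: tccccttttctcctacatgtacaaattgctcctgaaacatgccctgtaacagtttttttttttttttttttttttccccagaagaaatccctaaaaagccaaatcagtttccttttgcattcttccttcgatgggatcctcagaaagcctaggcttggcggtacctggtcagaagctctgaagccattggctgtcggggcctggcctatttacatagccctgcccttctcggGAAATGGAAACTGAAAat
Isg15 carried 3 overlapping matches, the first at base -78 from the start site. In Ifit1 the 2 matches began at -104 and -85, and in Ifit3 at -156 and -122. Ifit3b held the same pair of matches at -188 and -154 in the windows as listed, which are shifted against each other. Aligned end to end, Ifit3b and Ifit3 were identical at 216 of 282 positions (76.6%). The unmatched ends of the shifted windows count as differences here, so the figure understates the likeness of the stretch that both windows hold. Oas1a and Oas1g were 82.8% identical, with 2 overlapping matches each, close to the start site. Rsad2 had 1 match, at -120.

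The comparison of LPS with untreated BMDMs asks how far the antiviral program had been turned on after 2 h. All 48 genes were higher in both LPS libraries than in both untreated libraries, against 20.1% of all tested genes (71.5% were lower in both). The study's cut-offs were a log2 fold change of 2 or more and an adjusted p below 0.01, here from limma with Benjamini-Hochberg adjustment. Past them, 34 of the 48 rose and 0 fell, whereas 3.72% of all tested genes rose and 2.37% fell. At an adjusted p-value under 0.05 without a fold cut-off, 48 rose (17.9% of all tested genes) and 0 fell (66.3%), and the unadjusted p and the test on recovered reads gave 0 lower genes as well. The median log2 fold change was 2.53 for the 48 genes and -0.48 over all tested genes. After the libraries were rescaled by the median ratio over genes, the median of the 48 was 3.04 and that of all tested genes -0.01, with 38 of the 48 past the cut-offs, all higher, and 664 higher and 129 lower among all tested genes in place of 474 and 302. The summed level of the 48 genes was 2970 and 3025 TPM in the untreated libraries, or 0.297% and 0.302% of all TPM, and 27477 and 29272 TPM in LPS, or 2.75% and 2.93%.

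**Figure D1:**
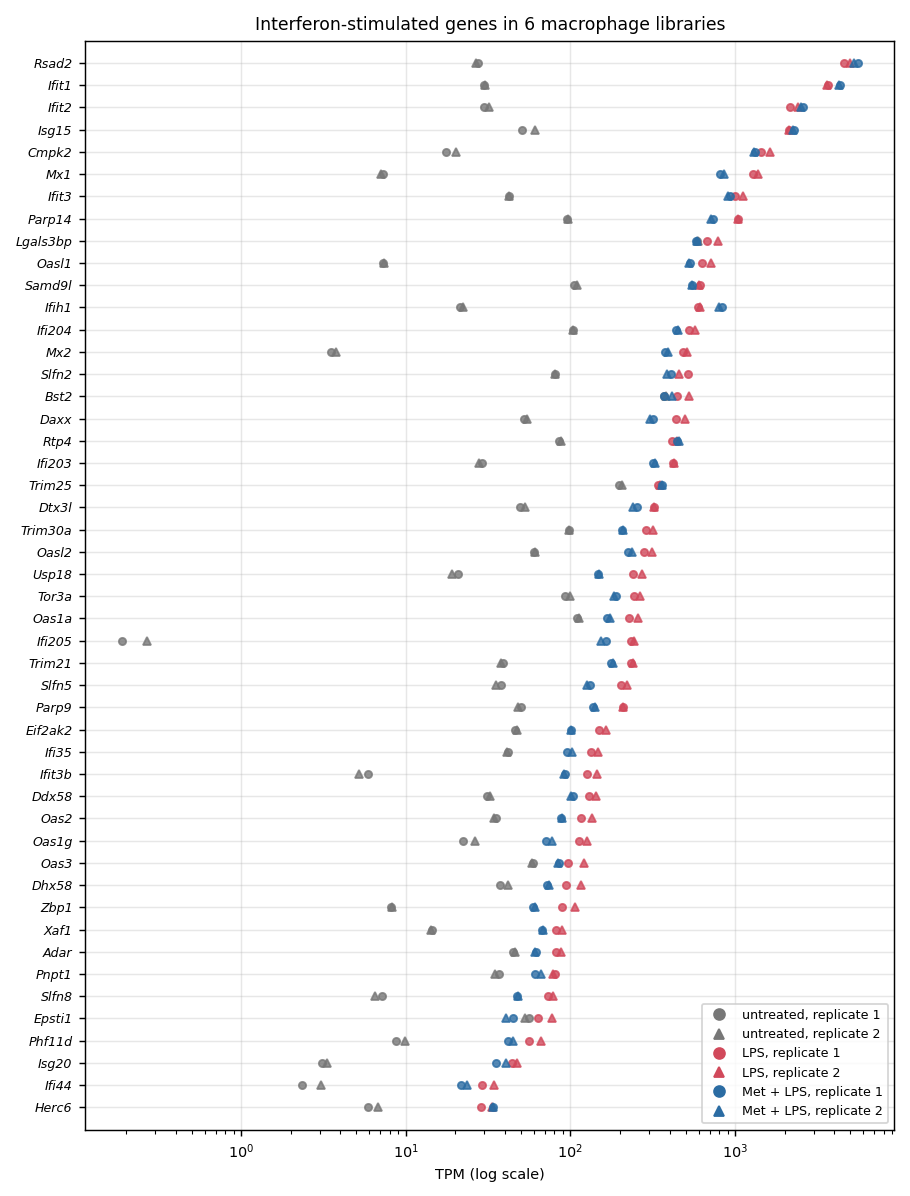
Level of each of the 48 genes in TPM (log axis) in the 6 libraries, ordered by mean level, with circles for replicate 1 and triangles for replicate 2. Every gene lies further right in LPS (red) than in untreated BMDMs (grey), and most lie further left in Met + LPS (blue) than in LPS, the exceptions being Rsad2, Ifit1, Ifit2, Isg15, Ifih1, Rtp4, Trim25 and Herc6.

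Ifi205 (ENSMUSG00000054203, chromosome 1, 174011998 to 174031810), of the PYHIN family of DNA-binding proteins, had the largest log2 increase. Its level was 0.189 and 0.267 TPM in the untreated libraries, which rest on 6 and 8 reads, 233 and 242 TPM in LPS and 165 and 154 TPM in Met + LPS. It reached the 1 TPM needed for testing only in the LPS and Met + LPS libraries, so its rise is tied to that filter. The log2 fold change between LPS and untreated was 7.60 (standard error 0.0557), and over the 15 fits of different processing it lay between 7.55 and 9.96.

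Rsad2 encodes viperin, an enzyme that makes a chain-terminating nucleotide (ENSMUSG00000020641, chromosome 12, 26442746 to 26456452). It was at 27.3 and 26.6 TPM in untreated BMDMs, 4606 and 5002 TPM in LPS and 5545 and 5286 TPM in Met + LPS. The increase with LPS was 178-fold on the group means (log2 fold change 7.42, standard error 0.048, adjusted p = 1.16e-09 in limma). Its neighbour Cmpk2, a mitochondrial nucleotide kinase (ENSMUSG00000020638, chromosome 12, 26469204 to 26479837), was at 17.6 and 20.1, 1435 and 1633, and 1321 and 1308 TPM in the same order, an 81.5-fold increase with LPS.

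Mx1 and Mx2 belong to a family of dynamin-like GTPases that block viruses, and they lie side by side on chromosome 16 (97447035 to 97560900). C57BL/6 mice, like most inbred strains, carry defective alleles of both genes, and the annotation lists Mx2 as a polymorphic pseudogene, so that the values are levels of RNA and not of a working protein. Mx1 (ENSMUSG00000000386) was at 7.30 and 7.08 TPM in untreated BMDMs, 1285 and 1386 TPM in LPS and 805 and 857 TPM in Met + LPS, a log2 difference of 7.35 between LPS and untreated. Mx2 (ENSMUSG00000023341) was at 3.49 and 3.79, 483 and 510, and 375 and 393 TPM, a log2 difference of 6.75. For both genes the 3 groups did not overlap, and Met + LPS lay between the other two.

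Ifit1, whose product binds viral RNA with an unmethylated cap (ENSMUSG00000034459, chromosome 19, 34640871 to 34650009), was at 29.7 and 30.2 TPM in untreated BMDMs, 3657 and 3606 TPM in LPS and 4358 and 4296 TPM in Met + LPS, a 121-fold increase with LPS (log2 fold change 6.87, standard error 0.029). Ifit2 (ENSMUSG00000045932, chromosome 19, 34550694 to 34576419) was at 29.7 and 32.1, 2157 and 2411, and 2582 and 2523 TPM, a 73.9-fold increase with LPS (log2 fold change 6.16). In both genes Met + LPS was the highest group. Oasl1, an oligoadenylate synthetase-like protein without synthetase activity (ENSMUSG00000041827, chromosome 5, 114923240 to 114937915), was at 7.31 and 7.39, 631 and 716, and 532 and 527 TPM, a 91.6-fold increase with LPS (log2 fold change 6.33).

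At the other end stood genes that were already abundant without LPS. Lgals3bp, a secreted glycoprotein (ENSMUSG00000033880, chromosome 11, 118392751 to 118402092), had the highest untreated level of the 48 genes at 588 and 592 TPM, and was at 679 and 790 TPM in LPS and 577 and 589 TPM in Met + LPS. Its log2 fold change with LPS was 0.31 (adjusted p = 0.00406 in limma). Bst2, the tetherin that holds budding virions at the cell surface (ENSMUSG00000046718, chromosome 8, 71534255 to 71537456), was at 371 and 378, 442 and 525, and 370 and 412 TPM, a log2 difference of 0.36 with LPS. Both genes were higher in LPS than in either other group, and their Met + LPS values overlapped the untreated ones.

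Epsti1 (ENSMUSG00000022014, chromosome 14, 77904239 to 78002657) was at 56.2 and 52.7 TPM in untreated BMDMs, 63.4 and 77.3 TPM in LPS and 44.6 and 40.9 TPM in Met + LPS. The difference between LPS and untreated was 0.36 on the log2 scale (standard error 0.0956, adjusted p = 0.0109 in limma). Trim25, a ubiquitin ligase that acts on the RNA sensor RIG-I (ENSMUSG00000000275, chromosome 11, 88999376 to 89020293), was at 198 and 206, 340 and 350, and 360 and 360 TPM, a log2 difference of 0.77 with LPS. The calls of Bst2 and Epsti1 were each lost in a fit that left out an untreated library, while the log2 differences changed little. For Bst2 it was 0.35 without untreated replicate 1, and for Epsti1 it was 0.31 without untreated replicate 2.

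By role, the 4 IFIT genes had the largest median increase with LPS, with a log2 fold change of 5.39 and all 4 past the cut-offs, which 3.72% of all tested genes passed upwards. The 7 sensors of nucleic acid had a median of 3.42, with 6 past the cut-offs and Dhx58 (1.38) as the other. Of the 9 restriction factors 8 passed (median 3.29), and of the 9 genes of the ISG15, ubiquitin and ADP-ribose group 7 passed (median 2.59). The OAS group held 3 of 6 past the cut-offs (median 2.04), from Oas3 (0.86) to Oasl1. Of the other RNA-acting enzymes, 1 of 4 passed, the exonuclease Isg20 (3.47), whereas the kinase PKR (Eif2ak2, 1.73), the polynucleotide phosphorylase Pnpt1 (1.13) and the RNA deaminase Adar (0.89) did not reach the fold cut-off. The remaining 9 genes had a median of 2.29, with 5 past the cut-offs.

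**Figure D2:**
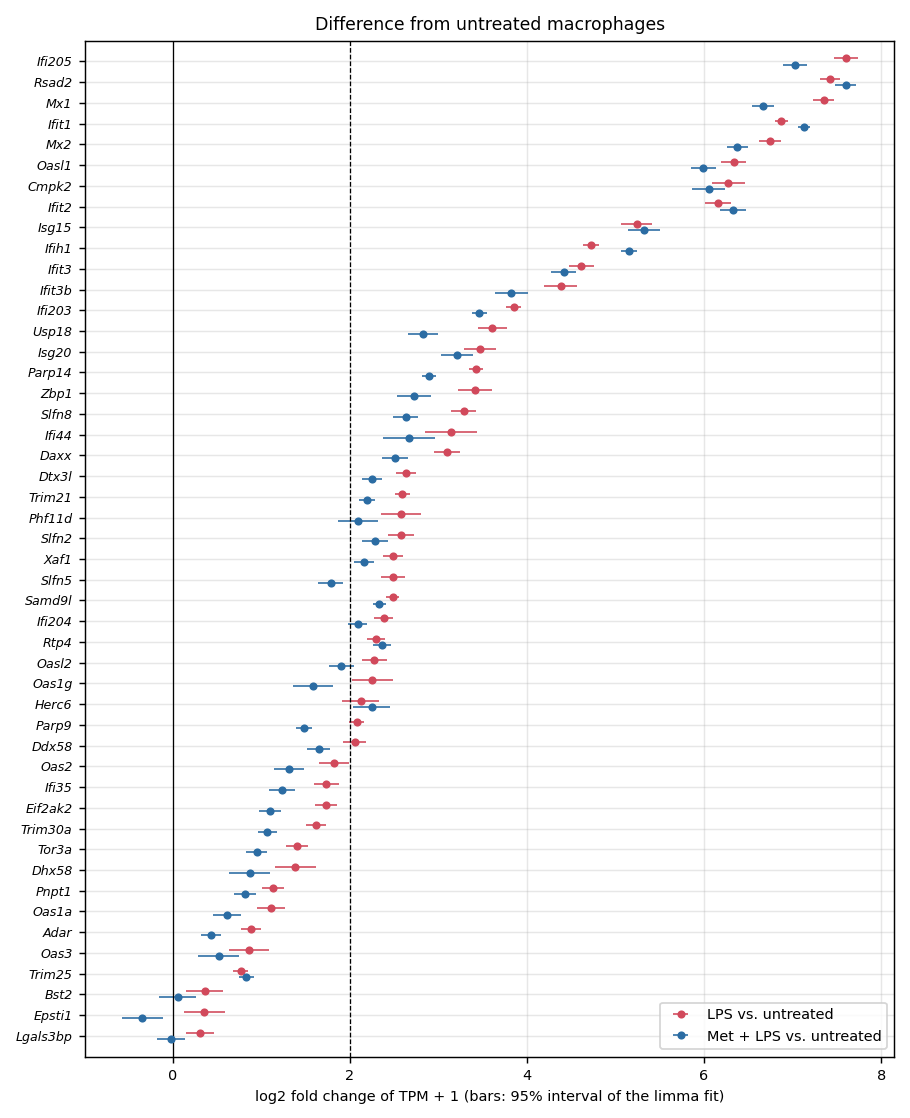
Log2 fold change of TPM + 1 over untreated BMDMs for each of the 48 genes, in LPS (red) and in Met + LPS (blue), with bars for the 95% interval of the limma fit, a dashed line at the cut-off of 2 and a solid line at 0. All 48 red points lie above 0, from 0.31 to 7.60, and Epsti1 and Lgals3bp are the genes whose blue points lie below 0.

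The comparison of Met + LPS with LPS asks whether metformin pretreatment altered this program. Most of the genes were lower in Met + LPS, by a modest amount. The median log2 fold change was -0.39 for the 48 genes and -0.03 over all tested genes. The study's cut-offs for this comparison were a log2 fold change of 0.7 in either direction and an adjusted p below 0.01. Past them, 3 of the 48 fell, or 6.25%, close to the 4.09% of all tested genes, and 0 rose (4.19%). The test on recovered reads also called 0 of them higher, and 4 were higher at an unadjusted p under 0.05. At an adjusted p-value under 0.05 without a fold cut-off, 39 fell and 3 rose, or 81.3% and 6.25% of the genes, against 26.4% and 21.9% of all tested genes. In 40 genes both Met + LPS libraries lay below both LPS libraries (40.0% of all tested genes), and in the other 8 both lay above (33.8%). These directions were kept by all 48 genes in each of the 15 fits of different processing. Where the libraries do not overlap, most of these fits could not turn a direction. That holds for leaving out a library and for changes of filter, trend, block or pseudocount. Median-ratio scaling could not do so either. Its factors were 0.891 and 0.885 in LPS and 0.880 and 0.880 in Met + LPS, too close to turn even the smallest difference (Trim25, 0.06). Only the recovered reads could have done so. LPS vs. untreated and Met + LPS vs. LPS use the same LPS libraries, with opposite signs, so that the values of both comparisons are set side by side without a correlation.

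The genes past the cut-offs were Usp18, Slfn5 and Epsti1. Usp18, the protease that removes ISG15 from proteins and restrains signalling at the interferon receptor (ENSMUSG00000030107, chromosome 6, 121245906 to 121270917), was at 20.8 and 19.1 TPM in untreated BMDMs, 239 and 271 TPM in LPS and 147 and 148 TPM in Met + LPS. The mean level dropped by 42.1%, a log2 difference of -0.78 (limma SE 0.0691, adjusted p = 0.000231). Slfn5, a member of the Schlafen family (ENSMUSG00000054404, chromosome 11, 82951349 to 82964840), was at 38.1 and 35.3, 202 and 219, and 132 and 126 TPM, and its log2 fold change was -0.71 (standard error 0.0572, adjusted p = 0.000165). In both genes Met + LPS lay between untreated and LPS without overlap. Of the exon bases of Slfn5, 8.84% are overlapped by the antisense gene Slfn5os, whose reads cannot be told apart without strand. Epsti1, with the values given above, had a log2 difference of -0.70 (SE 0.0956, adjusted p = 0.00139), and its Met + LPS libraries were also below the untreated ones.

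The number of genes past the cut-offs depended on the LPS libraries. LPS replicate 2 was above replicate 1 in 43 of the 48 genes, with a median difference of 0.12 on the log2 scale, whereas 46.9% of all tested genes were higher in replicate 2 and their median difference was -0.01. In the untreated and Met + LPS groups, 29 and 27 of the 48 genes were higher in replicate 2. Without LPS replicate 2, 0 of the 48 genes passed the cut-offs, and over all tested genes 427 fell and 498 rose, in place of 522 and 534 with all libraries. Without LPS replicate 1, 8 of the 48 passed while 475 of all tested genes fell and 519 rose. The 8 were Eif2ak2, Epsti1, Mx1, Oas1g, Slfn5, Slfn8, Usp18 and Zbp1. With all libraries, median-ratio scaling gave 1 (Usp18), beside 514 lower and 580 higher among all tested genes. The values on either side of the cut-off were close, at -0.701 for Epsti1 and -0.697 for Zbp1.

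The next genes by size of change missed the fold cut-off. Zbp1, a sensor of Z-form nucleic acid that can set off cell death (ENSMUSG00000027514, chromosome 2, 173206612 to 173218923), was at 8.16 and 8.27 TPM in untreated BMDMs, 89.4 and 106 TPM in LPS and 58.9 and 60.7 TPM in Met + LPS, and its mean dropped by 38.9% (adjusted p = 0.000667 in limma). Mx1, from the values above, had a log2 difference of -0.68 (limma adjusted p = 0.000109). Slfn8 (ENSMUSG00000035208, chromosome 11, 83002158 to 83020810) was at 7.20 and 6.52, 73.5 and 78.1, and 47.2 and 48.03 TPM, a log2 difference of -0.66. In each of these genes Met + LPS was well above untreated and below LPS.

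Eif2ak2, the double-stranded RNA-activated kinase PKR that halts translation (ENSMUSG00000024079, chromosome 17, 78852564 to 78882573), was at 46.2 and 47.4 TPM in untreated BMDMs, 150 and 165 TPM in LPS and 101 and 101 TPM in Met + LPS, a log2 difference of -0.63 (limma SE 0.0514, adjusted p = 0.000168). The poly(ADP-ribose) polymerases Parp9 and Parp14 had log2 fold changes of -0.59 and -0.53, and Dtx3l, the ubiquitin ligase that pairs with Parp9, -0.38. The 3 genes adjoin on chromosome 16 (35832874 to 35972605).

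**Figure D3:**
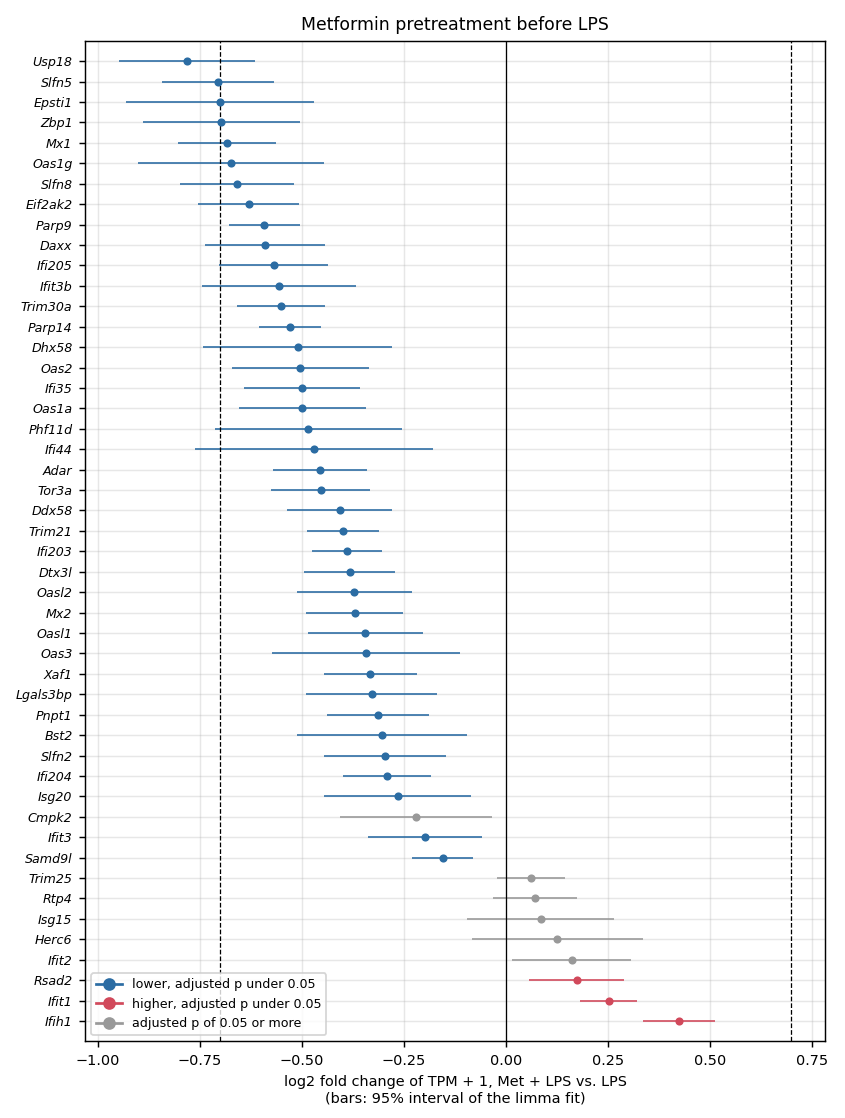
Log2 fold change of TPM + 1 between Met + LPS and LPS for each of the 48 genes, with bars for the 95% interval of the limma fit and dashed lines at the cut-off of 0.7 in either direction. Blue points are the 39 genes that were lower and red points the 3 that were higher at an adjusted p-value under 0.05, and grey points are the other 6.

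Ifih1, Ifit1 and Rsad2 rose at an adjusted p-value under 0.05, all by less than the fold cut-off, and are singled out here after their values were seen. Ifih1, which encodes MDA5, a cytosolic sensor of long double-stranded RNA (ENSMUSG00000026896, chromosome 2, 62595798 to 62646255), was at 21.5 and 22.2 TPM in untreated BMDMs, 599 and 609 TPM in LPS and 829 and 793 TPM in Met + LPS. The increase with metformin was 34.3% of the mean, a log2 difference of 0.42 (95% interval 0.34 to 0.51, limma adjusted p = 0.000211). Ifit1 was 19.1% higher, a log2 difference of 0.25 (0.18 to 0.32, limma adjusted p = 0.000675). Rsad2 was 12.7% higher, a log2 difference of 0.17 (0.06 to 0.29, limma adjusted p = 0.0240). Over all 15 fits the adjusted p-value reached at most 0.00301 for Ifih1 and 0.00858 for Ifit1, whereas the call of Rsad2 was lost under several of them, with an adjusted p-value of up to 0.121. Leaving out LPS replicate 1 lowered the value of Rsad2 to 0.11 (adjusted p = 0.0922), and without Met + LPS replicate 1 it was 0.14.

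The other genes with both Met + LPS libraries above both LPS libraries did not pass the test. Ifit2, with the values given above, had a log2 difference of 0.16 (95% interval 0.02 to 0.31, limma adjusted p = 0.0671), and without LPS replicate 2 its value was 0.24 with an adjusted p-value of 0.0203. It passed as well in 3 other fits, among them those with a 5 TPM minimum (adjusted p = 0.0357) and on recovered reads (0.00185), and the highest adjusted p-value over the fits was 0.277. Isg15, the ubiquitin-like protein that is joined to other proteins during infection (ENSMUSG00000035692, chromosome 4, 156199424 to 156200818), was at 50.8 and 60.6 TPM in untreated BMDMs, 2134 and 2126 TPM in LPS and 2274 and 2247 TPM in Met + LPS, a log2 difference of 0.09 (95% interval -0.09 to 0.27). Herc6, its ligase in the mouse, Rtp4 and Trim25 had log2 fold changes of 0.13, 0.07 and 0.06. Cmpk2 was lower in both Met + LPS libraries, at -0.22 (95% interval -0.41 to -0.03, adjusted p = 0.0556), and it passed without LPS replicate 1 (-0.31, adjusted p = 0.0272) and in 3 other fits, among them the 5 TPM minimum (adjusted p = 0.0251) and the recovered reads (0.000333), whereas the highest adjusted p-value was 0.249. In the other direction, the calls of Bst2, Ifi44, Ifit3, Isg20, Oas3 and Slfn2, all lower in Met + LPS, were each lost when at least 1 library was left out. For Bst2, Ifit3, Isg20 and Oas3 this included the untreated libraries, which are not in this comparison. There the log2 difference stayed the same and only the estimate of the spread changed.

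The genes with higher levels in Met + LPS included the most abundant ones. Rsad2, Ifit1, Ifit2 and Isg15 together made up 45.7% and 44.9% of the summed TPM of the 48 genes in LPS and 54.6% and 53.8% in Met + LPS, against 4.63% and 4.94% in untreated BMDMs. They have the highest mean levels in LPS and were grouped after their values were seen. All of them were higher in Met + LPS while the sum of the 48 was lower, so their share had to rise. The sum of all 48 genes was 27043 and 26676 TPM in Met + LPS, below both LPS libraries (27477 and 29272 TPM). The other 44 genes summed to 14922 and 16127 TPM in LPS and 12285 and 12323 TPM in Met + LPS. For both sums the Met + LPS libraries lay below the LPS libraries, without overlap.

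Seen by role, the sensors had a median log2 fold change of -0.41 between Met + LPS and LPS, and 6 of them fell and 1 (Ifih1) rose at an adjusted p-value under 0.05. Of all tested genes, 26.4% fell and 21.9% rose at that threshold, and the counts of the small groups below are read beside these shares. Ddx58, which encodes RIG-I, fell by 0.41 on the log2 scale and Dhx58, which encodes LGP2, by 0.51, and the PYHIN genes Ifi203, Ifi204 and Ifi205 had values of -0.39, -0.29 and -0.57. In the OAS group 6 of 6 fell (median -0.43). Among the IFIT genes 2 fell and 1 rose (median -0.02). All 4 other RNA-acting enzymes fell (median -0.38). In the ISG15, ubiquitin and ADP-ribose group 6 of 9 fell (median -0.40), in the restriction group 7 of 9 fell and 1 rose (median -0.30), and in the remaining group 8 of 9 fell (median -0.47).

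The 48 genes include 8 groups of neighbours on a chromosome, and the spread within them differed. Oasl2 and Oasl1 had nearly the same log2 difference between Met + LPS and LPS, -0.37 and -0.34. The 4 IFIT genes lie together on chromosome 19 (34550694 to 34650009) and ranged from -0.56 (Ifit3b) to 0.25 (Ifit1). Ifit3 (ENSMUSG00000074896, 34583531 to 34588731) was at 42.2 and 42.2 TPM in untreated BMDMs, 993 and 1123 TPM in LPS and 936 and 906 TPM in Met + LPS, a log2 difference of -0.20 (limma adjusted p = 0.0303). Ifit3b (ENSMUSG00000062488, 34607970 to 34613401) was at 5.92 and 5.23, 127 and 145, and 92.7 and 91.2 TPM. Ifit3 shares 61.8% of its 31-base words with Ifit3b, so that the counting could have split their reads and the values of each are uncertain.

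Ratios within a library do not depend on its scaling. The ratio of each gene to the next along the chromosome gave 14 ratios in the 8 groups, which are descriptions without a test. That of Rsad2 to Cmpk2 was 3.21 and 3.06 in LPS and 4.20 and 4.04 in Met + LPS, and that of Ifit2 to Ifit3 was 2.17 and 2.15 and then 2.76 and 2.79. The ratio of Ifit3b to Ifit1 was 0.0346 and 0.0403 in LPS and 0.0213 and 0.0212 in Met + LPS, the widest change of the 14 (-0.81 on the log2 scale). The other ratios changed by less, in either direction. Dtx3l to Parp9 went from 1.54 and 1.54 to 1.84 and 1.72, whereas Mx1 to Mx2 went from 2.66 and 2.72 to 2.15 and 2.18. For Oasl2 to Oasl1 (0.446 and 0.440 in LPS, 0.421 and 0.448 in Met + LPS) and Slfn5 to Slfn8 (2.75 and 2.81, then 2.79 and 2.62) the libraries of the groups overlapped.

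**Figure D4:**
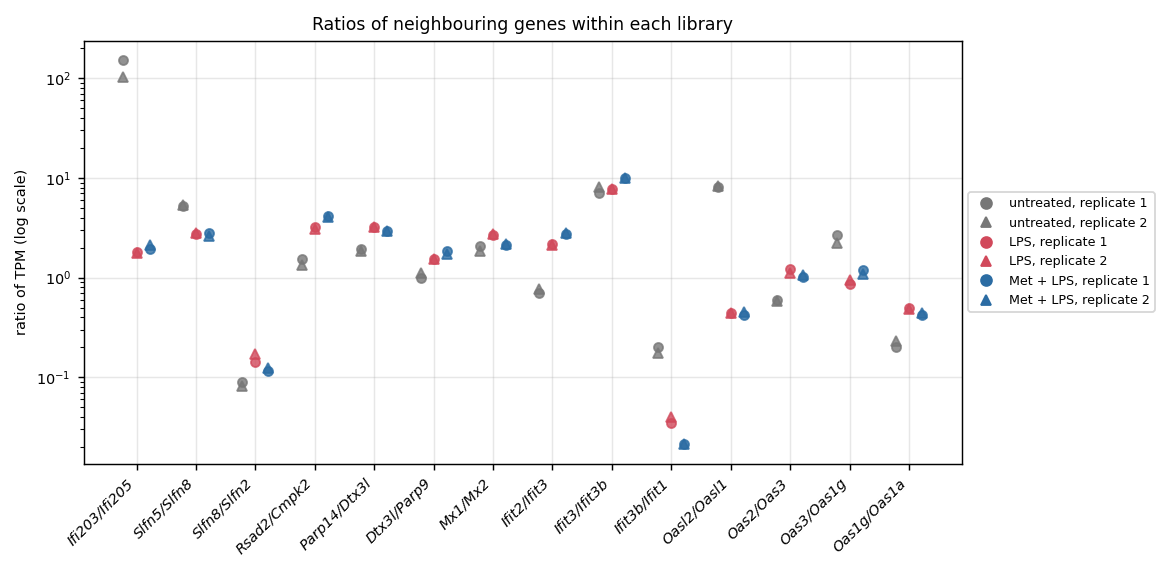
Ratio of the TPM of each gene to that of the next one in the same group of neighbours, within each library (log axis), with circles for replicate 1 and triangles for replicate 2. Among the 14 ratios, some are higher and some lower in Met + LPS (blue) than in LPS (red), and those of Oasl2 to Oasl1 and Slfn5 to Slfn8 overlap.

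The OAS enzymes, which make the short adenylate chains that activate RNase L, lie in a pair of clusters on chromosome 5. Oas1g (ENSMUSG00000066861, 120876142 to 120887613) was at 22.1 and 26.3 TPM in untreated BMDMs, 112 and 126 TPM in LPS and 71.2 and 77.5 TPM in Met + LPS, a log2 difference of -0.67 (limma SE 0.0943, adjusted p = 0.00155). Oas1a (ENSMUSG00000052776, 120896256 to 120907521) was at 109 and 113, 226 and 258, and 167 and 174 TPM, with -0.50. Of the 31-base words of Oas1a 68.7% are also in Oas1g, so the division of reads between them is uncertain, and the direction was the same in both. Over the cluster of Oas2, Oas3, Oas1g and Oas1a (120730333 to 120907521) the values lay between -0.67 and -0.34.

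Split by the promoter letters, the 18 genes with the GAAA repeat had a median log2 fold change of -0.40 between Met + LPS and LPS, with 14 lower and 3 higher at an adjusted p-value under 0.05 (26.4% and 21.9% of all tested genes). The 19 genes with a listed promoter but no match had a median of -0.33, with 15 lower and 0 higher. The 11 genes with no promoter in the table, Mx1, Mx2 and Usp18 among them, had a median of -0.51, with 10 lower and 0 higher. The promoters of Ifih1, Ifit1 and Rsad2, the genes that rose, held the letters, and so did those of genes that fell, such as Ifit3b, Oas1a, Oas1g, Slfn5 and Eif2ak2. In the comparison of LPS with untreated BMDMs the medians were 2.94, 2.49 and 2.38 in the same order. No test was made of these groups, whose differences are descriptions.

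The comparison of Met + LPS with untreated BMDMs asks how far the genes stood above untreated levels in cells that had metformin before LPS. Past a log2 fold change of 2 with an adjusted p below 0.01 (limma), 29 of the 48 genes were higher than untreated (3.18% of all tested genes) and 0 were lower (2.16%), and the test on recovered reads gave the same counts. At an adjusted p below 0.05, 45 were higher (18.8% of all tested genes) and 1 was lower (64.0%). The same numbers, 45 and 1, had both libraries above or below both untreated ones (21.7% and 69.1% of all tested genes). The median log2 fold change was 2.25 for the 48 genes and -0.48 over all tested genes, beside 2.53 between LPS and untreated. The gene below untreated was Epsti1, with -0.34 (adjusted p = 0.0136), and its direction turned to 0.19 (adjusted p = 0.128) under median-ratio scaling. Its call was also lost without untreated replicate 1 (-0.30, adjusted p = 0.0974) and without Met + LPS replicate 2 (-0.28, adjusted p = 0.0838). Lgals3bp (-0.02, adjusted p = 0.824) and Bst2 (0.06, adjusted p = 0.550) did not pass the test against untreated BMDMs, and under median-ratio scaling they had 0.52 and 0.60, with adjusted p-values of 0.000523 and 0.000920.

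Of the genes that produce or transmit the interferon signal, 25 of 27 on a list chosen for this pathway were tested. With LPS 5 rose past the cut-offs and 0 fell (3.72% and 2.37% of all tested genes), and at an adjusted p below 0.05 in limma 17 rose and 4 fell (17.9% and 66.3%). Between Met + LPS and LPS, 2 rose and 3 fell past the cut-offs (4.19% and 4.09% of all tested genes). At an adjusted p-value under 0.05, 4 rose and 18 fell (21.9% and 26.4%), and the median log2 fold change was -0.31. The gene for the cytokine itself went the other way from most. Ifnb1 (ENSMUSG00000048806, chromosome 4, 88522025 to 88522774) was listed at 0.351 and 0 TPM in untreated BMDMs and was at 148 and 182 TPM in LPS and 738 and 686 TPM in Met + LPS. Both Met + LPS libraries were far above both LPS libraries, with a log2 difference of 2.11 (limma SE 0.154, adjusted p = 0.000110). Ticam1, the adaptor TRIF (ENSMUSG00000047123, chromosome 17, 56269319 to 56276786), was at 55.9 and 52.5 TPM in untreated BMDMs, 41.5 and 40.3 TPM in LPS and 93.4 and 85.7 TPM in Met + LPS, a log2 difference of 1.11 (limma adjusted p = 2.78e-05).

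The receptor chains Ifnar1 and Ifnar2 fell by 0.53 and 0.43 on the log2 scale. Stat2 was at 190 and 199 TPM in LPS and 149 and 162 TPM in Met + LPS, a log2 difference of -0.32 (limma adjusted p = 0.00224). Irf9, its partner in the complex, was at 68.7 and 71.2 TPM in LPS and 66.4 and 69.7 TPM in Met + LPS, with -0.04 (adjusted p = 0.475). Irf7, the factor that amplifies interferon production and is itself interferon-stimulated, was at 33.0 and 31.1 TPM in untreated BMDMs, 167 and 198 TPM in LPS and 116 and 120 TPM in Met + LPS, a log2 difference of -0.62 (SE 0.0804, adjusted p = 0.00109). Irf1 had -0.26 (adjusted p = 0.00193). The genes that fell past the cut-offs were Tmem173 (-0.89), which encodes STING, Irf8 (-0.87) and Socs1 (-0.81), an inhibitor of JAK kinases. In the same Met + LPS libraries, Ifnb1 was higher and most of the 48 interferon-stimulated genes were lower than in LPS.

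**Figure D5:**
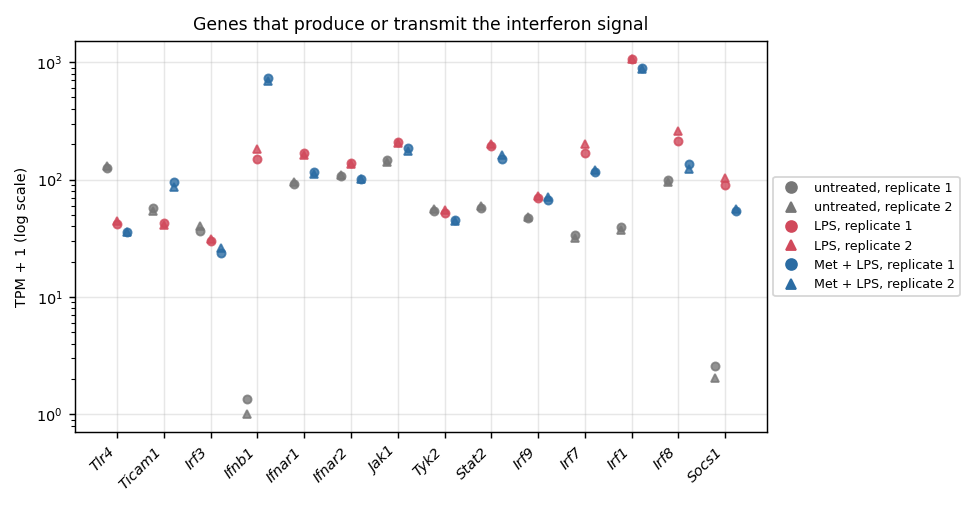
TPM + 1 (log axis) of genes that produce or transmit the interferon signal in the 6 libraries, with circles for replicate 1 and triangles for replicate 2. Ifnb1 and Ticam1 lie higher in Met + LPS (blue) than in LPS (red), whereas Ifnar1, Ifnar2, Stat2, Irf7, Irf8 and Socs1 lie lower.

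A second list held 51 further interferon-stimulated genes, of which 49 were tested. With LPS 19 of them rose past the cut-offs and 0 fell (3.72% and 2.37% of all tested genes). At an adjusted p below 0.05 in limma 41 rose and 5 fell (17.9% and 66.3%). Between Met + LPS and LPS 0 rose and 13 fell past the cut-offs (4.19% and 4.09% of all tested genes). At an adjusted p-value under 0.05 in limma, 1 rose and 39 fell (21.9% and 26.4%), and the median log2 fold change was -0.38. The 13 were Iigp1 (-1.35), Ifi27l2a (-1.16), Trim30b (-1.14), Phf11c (-1.10), Ms4a4c (-0.98), Apobec3 (-0.87), Samhd1 (-0.86), Phf11a (-0.84), Trim30d (-0.78), Phf11b (-0.77), Igtp (-0.75), Slfn9 (-0.71) and Sp100 (-0.71). Iigp1 and Igtp encode GTPases that attack the vacuoles of intracellular pathogens, and Samhd1 and Apobec3 encode enzymes that limit retroviruses. Cxcl10, a chemokine and the highest gene of this list, was at 6961 and 7310 TPM in LPS and 5491 and 5520 TPM in Met + LPS, a log2 difference of -0.37 (limma adjusted p = 0.000426). The gene that rose was Tmem140 (0.69), which had been lower in LPS than in untreated BMDMs.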

How the data were processed

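RNA-seq values of 6 mouse BMDM libraries, 3 groups of 2, were analysed. The authors enriched poly-A RNA, prepared libraries with the TruSeq RNA kit, aligned single-end reads to GRCm38 with STAR 2.6.1d, handled alignments with SAMtools 1.9 and counted reads per gene with featureCounts of Subread 1.6.3, and deposited TPM values. Versions are those of the submitters' processing notes. How counts became TPM and the strand setting of the counting are not given in the sources used here. The authors' own test was DESeq2, which needs counts and was not used. TPM sums to the same total in each library, so the total RNA per cell is not visible.

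Genes that reached 1 TPM in 2 or more libraries were tested on log2(TPM + 1) with limma 3.58.1 in R 4.3.3 (lmFit, eBayes with trend, 6 libraries in a common fit, 3 residual degrees of freedom, Benjamini-Hochberg adjustment over 12755 genes). Fold changes on this scale understate those of low genes. Cut-offs were an absolute log2 fold change of 2, or 0.7 for Met + LPS vs. LPS, with an adjusted p-value under 0.01, and an adjusted p-value under 0.05 without a fold. The fits were repeated with 0.1 TPM as pseudocount, without a filter, with a 5 TPM minimum, with median-ratio scaling, the compared groups alone, the replicate number as a block, no trend, an adjusted p of 0.05, a log2 fold of 1, leaving out each library, and limma voom on recovered reads, the last chosen after seeing the data. Scripts were tested on simulated data. Other steps used Python 3.11.15, numpy 2.4.6, pandas 2.3.3, scipy 1.17.1 and matplotlib 3.10.9.

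TPM multiplied by GENCODE exon length was a whole multiple of a common step (tolerance 0.02, values under 1000 reads) for 96.9% to 97.2% of values, and the step was taken as 1 read. Limits from reads cover counting error only. Own sequence was judged by 31-base words found in no other gene. Of the 48 genes, 30 had at least 90% of their own and 6 under 75% (Ifit3 38.2%, Ifit3b 44.7%, Oas1a 31.2%, Oas1g 45.0%, Ifi204 65.5%, Slfn8 72.7%). Exons of Adar, Herc6, Ifi35 and Rtp4 overlapped another gene by over 10%.

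The 48 genes and the lists of signalling, further interferon-stimulated and NF-κB target genes were chosen with earlier results of these data known. Values in every library are given for genes past the cut-offs in Met + LPS vs. LPS, the 8 largest changes in that comparison, the 8 largest and 4 lowest changes with LPS, and the near-identical pairs. Listed genes were named where they passed the cut-offs in Met + LPS vs. LPS or were Ifnb1, Stat2, Irf7, Irf9, Irf1 or Cxcl10. Others were named after their values were seen. Of the lists of cell markers, those of T cells summed to between 2.72 and 6.92 TPM (led by Cd4), conventional dendritic cells to between 0.469 and 2.13, fibroblasts to between 0.456 and 2.81 and basophils and mast cells to between 0.181 and 1.56 TPM. Some genes of the lists are not reported here.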

Additional observations from a re-analysis of the deposited data

How the results depend on the processing

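In all 15 fits the 48 genes were above 0 in LPS vs. untreated, and in Met + LPS vs. LPS 8 were above and 40 below 0. As the libraries of these groups did not overlap, only the recovered reads could have turned a direction. Median-ratio scaling raised the values in LPS vs. untreated, which were above 0 already, and its factors in LPS and Met + LPS were nearly the same. The median of the 48 genes between LPS and untreated was 3.04 under median-ratio scaling, which moved the median of all tested genes from -0.48 to -0.01 by its own construction, and the median between Met + LPS and untreated was 2.76 (2.28 with a pseudocount of 0.1, 2.30 with voom on recovered reads, and 2.20 to 2.29 when each library was left out). The number of the 48 past the cut-offs in Met + LPS vs. LPS was 1 under median-ratio scaling, beside 1094 of all tested genes. Under this scaling the median of the 48 was -0.38 in place of -0.39. In the main fit Slfn5 (-0.705) and Epsti1 (-0.701) lay close to the cut-off of 0.7. The cause of the lower count was not tested. At a log2 difference of 1, a stricter cut-off, the number was 0, beside 455 of all tested genes. Leaving out an LPS library also changed it, as described above. Reversed directions concerned Met + LPS vs. untreated, where Epsti1 was at 0.19 and Lgals3bp at 0.52 under median-ratio scaling, Lgals3bp at 3.89e-05 with voom, and Bst2 from -0.019 to 0.14 over the fits without 1 library, and of these Epsti1 alone had passed the test before. Over all tested genes, those past the cut-offs in LPS vs. untreated were 776, with 1512 at a pseudocount of 0.1, 1596 with voom and 3556 at a log2 difference of 1. The differences between replicates 2 and 1 correlated across genes at -0.00365, 0.0284 and 0.00624 between the pairs of groups, so no shared effect of the replicate number was visible. Whether equally numbered libraries share a mouse, culture or day cannot be told from these values. The replicate block gave 34, 3 and 29 of the 48 past the cut-offs in LPS vs. untreated, Met + LPS vs. LPS and Met + LPS vs. untreated. Over all tested genes 777, 1044 and 682 passed in the same order. At an adjusted p-value under 0.05 (limma), 44 of the 48 in place of 42 passed in Met + LPS vs. LPS, beside 6090 in place of 6166 of all tested genes.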

Other observations

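The list of 28 NF-κB target genes of the LPS response gives values for the other arm of TLR4 signalling. They were chosen as genes that LPS switches on, so that the 28 that rose past the cut-offs with LPS (3.72% of all tested genes rose) describe the choice. Between Met + LPS and LPS, 2 rose (the chemokine Cxcl2, 1.42, and Tnf, 1.04) and 5 fell (Ier3, -1.04, Bcl3, -0.91, Cd40, -0.81, Il1b, -0.75, and Icam1, -0.72) past the cut-offs, beside 4.19% and 4.09% of all tested genes. At an adjusted p below 0.05 (limma) 6 rose and 16 fell (21.9% and 26.4% of all tested genes), and the median log2 fold change was -0.28, beside -0.39 for the 48 interferon-stimulated antiviral genes and -0.03 over all tested genes. Tnf was at 3920 and 3914 TPM in LPS and 8212 and 7925 TPM in Met + LPS. Cxcl2 was at 558 and 574 TPM in LPS and 1570 and 1472 TPM in Met + LPS. No test between the lists was made.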
